A study of Microtus ochrogaster with 40 samples.

Results

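The cells described here are nuclei of the prairie vole nucleus accumbens in which RNA of the dopamine D3 receptor gene, Drd3, was counted. A nucleus was included when it held at least 1 Drd3 UMI (a unique molecular identifier, which stands for 1 captured RNA molecule) and 0 UMIs of each of DRD2, Adora2a, Gpr6, Otof and Slc17a7. The nuclei were thus chosen by the measured counts of these 6 genes, whose levels are given as a description. The rule found 2586 Drd3-positive nuclei among 185995 kept nuclei of 40 animals, and 2547 without the library numbered 4, male mate 2, whose kept nuclei had a median of 662 UMIs against 935 to 2201 in the other libraries. They were compared with 28427 D1 comparison nuclei, which held at least 1 UMI of DRD1A (the dopamine D1 receptor gene, Drd1, as the files spell it), no Drd3 UMI and none of the same 5 genes.

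The D3 receptor is a dopamine receptor of the D2 family, which couples to inhibitory G proteins and lowers cyclic AMP. In rodents it is known from the ventral striatum, chiefly from the granule cells of the islands of Calleja and from medium spiny neurons of the accumbens shell, many of which also make the D1 receptor. The medium spiny neuron is the GABA-releasing projection neuron of the striatum, and its D1 and D2 kinds are told apart by their dopamine receptors and peptides.

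Each library held nuclei of 1 animal, isolated from frozen, dissected nucleus accumbens on an iodixanol gradient and captured in droplets. The voles were female or male and had been housed for 16 days with a mate (a partner of the opposite sex) or a peer (a partner of the same sex), with 11 females and 11 males in the mate condition and 8 females and 10 males in the peer condition. Every animal used here thus had a partner, and no age was given. Adjacent library numbers (1 and 2, 3 and 4, and so on) hold a female mate and a male mate in 11 cases and same-sex peers in 9, but whether they lived together was not stated, and the p-values treat the animals as separate. The design asks how accumbens nuclei differ between mate and peer housing, in each sex.

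A library held 1793 to 8204 kept nuclei. Of the kept nuclei, 41473 carried a barcode sequence that another library also held, with at most 85 shared by a pair of libraries (1.53% of the smaller). Among the Drd3-positive nuclei 605 did so, and 6 shared their barcode with a Drd3-positive nucleus of another library.

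The rule rests on few molecules. Of the Drd3-positive nuclei, 2416 (93.4%) held exactly 1 Drd3 UMI and 170 held 2 or more, up to 4 in 2 nuclei. Another 2092 nuclei had Drd3 but were left out by an exclusion gene, most often Gpr6 (1401 nuclei) or Adora2a (1172), both genes of D2 medium spiny neurons. In 611 of those left out, the exclusion rested on 1 UMI. Depth entered the choice as well: 0.326% of kept nuclei with 500 to 1000 UMIs met the rule, 1.65% from 1000 to 2000, 2.22% from 2000 to 4000 and 1.94% above. Kinds of nuclei also differ in depth. Among Drd3-positive plus D1 comparison nuclei the Drd3-positive share rose throughout, at 6.65%, 7.54%, 8.94% and 12.2% over the same ranges. Median depth was 2134 UMIs in the Drd3-positive nuclei, 1987 in the D1 comparison nuclei and 1542 in all other nuclei. Confidence limits given for shares of nuclei cover counting error only.

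The other 4 genes offered as marks of Drd3-expressing neurons were rare. Krt15, a keratin gene, was found in 14 Drd3-positive nuclei (0.541%), against 0.095% of D1 comparison nuclei and 0.00536% of nuclei in the astrocyte-like cluster, whose median depth was 779 UMIs. Prok2, which encodes the secreted peptide prokineticin 2, was found in 1.59% against 0.911% of D1 comparison nuclei. Lrrc38, an auxiliary subunit of potassium channels, was found in 1.39% against 1.11%, and Pld5 in 3.25% against 2.57%. None of the 4 was found in 2432 Drd3-positive nuclei, 1 of them in 136, and 2 or more in 18. With nuclei thinned to 1000 UMIs, which leaves out the 204 Drd3-positive nuclei that were shallower (among them 14 of those 18), the shares for Lrrc38 (0.437% against 0.507%) and Pld5 (1.06% against 1.17%) stood below those of the D1 comparison nuclei. Thinned shares of Krt15 and Prok2 are not given here. Unthinned, among Drd3-positive plus D1 comparison nuclei, 34.1% (20.1 to 50.6%) of Krt15 nuclei were Drd3-positive, against 8.30% without Krt15. For Prok2 this was 13.7% (9.99 to 18.1%) against 8.29%, at medians of 2063.5 and 1997 UMIs. For Lrrc38 it was 10.3% (7.29 to 13.9%) against 8.32%, and for Pld5 10.3% (8.30 to 12.6%) against 8.29%.

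Most of the nuclei carried RNAs of D1 medium spiny neurons, and 386 (14.9%) lay outside the D1-like cluster described below. Snap25, a synaptic gene of neurons, was found in 89.9% of all Drd3-positive nuclei. Tac1, the gene of the peptide substance P, was found in 81.1% and Ppp1r1b, the gene of the dopamine signalling protein DARPP-32, in 81.2%. Pdyn, the gene of the opioid peptide dynorphin, was found in 57.0%, against 45.2% of D1 comparison nuclei and 1.47% of nuclei of the astrocyte-like cluster. DRD1A itself was found in 2012 Drd3-positive nuclei (77.8%). The rule had removed nuclei with genes of D2 medium spiny neurons, which raises the share of D1 nuclei among those left. Drd4 and Drd5, the other dopamine receptor genes, were found in 0.851% and 0.0773%. The nuclei are therefore called Drd3-positive, and no separate Drd3 cell type is named.

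Clustering of all kept nuclei placed the Drd3-positive nuclei largely in 1 cluster. The cluster led by Pdyn, Reln, DRD1A and Tac1, D1 medium spiny neuron-like, held 2200 of them (85.1%), from all 40 animals, and 69.7% of the D1 comparison nuclei. Drd3 was found in 7.64% of this cluster's nuclei (95% exact binomial interval 7.37 to 7.92%), with a Drd3 level of 38.5 CPM (counts per 1000000 UMIs). The eccentric spiny neuron-like cluster, led by Foxp2, Tac2 and Col14a1, held 185 Drd3-positive nuclei (7.15%) and 18.8% of the comparison nuclei. Drd3 was found in 2.20% of its nuclei (1.97 to 2.44%). The interneuron-like cluster, led by Sst and Npy, held 57 (2.20%) and 4.21% of the comparison nuclei. Sst was found in 15.8% of these 57, and Chat, a gene of cholinergic neurons, also in 15.8%. Drd3 was not among the 2000 genes used to form the clusters, but the clusters come from the expression of these same nuclei, so the shares are a description.

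**Figure D1:**
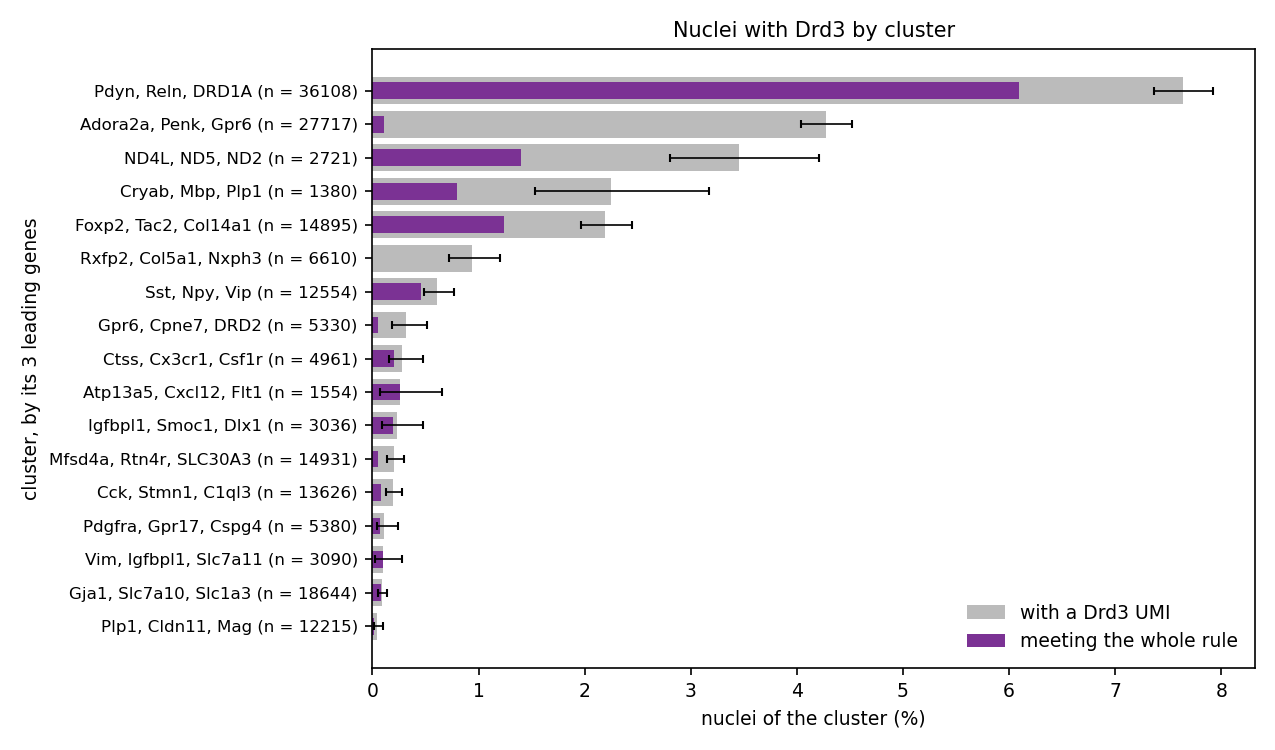
Share of each cluster's nuclei with a Drd3 UMI (grey bars, with 95% exact binomial intervals) and share meeting the whole rule (purple), in percent, for the clusters of at least 1000 nuclei named by their 3 leading genes. The cluster of Pdyn, Reln and DRD1A stands highest at 7.64%, and in that of Adora2a, Penk and Gpr6 Drd3 was found in 4.28% while 0.105% met the rule.

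Drd3 was also found outside D1-like nuclei. In the D2 medium spiny neuron-like cluster led by Adora2a, Penk and Gpr6, 1186 nuclei had a Drd3 UMI (4.28%, 4.04 to 4.52%), of which 29 met the rule. The other D2-like cluster, led by Gpr6, Cpne7 and DRD2, had Drd3 in 17 of 5330 nuclei (0.319%, 0.186 to 0.510%) at a similar median depth (1999 against 1921 UMIs). In the 6 glial and vascular clusters Drd3 was found in 45 of 43208 nuclei (0.104%, 0.0760 to 0.139%) at a median of 739 UMIs, and 35 of these nuclei (1.35% of the Drd3-positive nuclei) met the rule. With nuclei thinned to 1000 UMIs, which leaves out 62577 shallower nuclei and keeps 123418, the shares were 3.88% in the D1-like cluster (31595 of 36108 nuclei kept), 2.21% in the Penk cluster, 1.18% in the eccentric-like cluster, and in the 5 glial and vascular clusters that had any Drd3 nucleus from 0.0206% in an oligodendrocyte-like to 0.598% in the microglia-like cluster (540 of 4961 nuclei kept, 0.282% unthinned), with 0.167% in the astrocyte-like one (3557 of 18644 kept, 0.0858% unthinned). In the other glial cluster 0 of 454 nuclei had Drd3, which allows a share of up to 0.661% (3 nuclei of that total) or, as the exact binomial limit, 0.809%. At a finer clustering resolution, Drd3 was found in 3 of 4547 nuclei (0.0660%) of the microglia-like cluster. An unnamed cluster led by the microglial genes Ctss and Cx3cr1 had Drd3 in 11 of 413 nuclei, and 76.8% of its nuclei were called doublets.

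At a finer resolution 3 D1-like clusters held 847, 781 and 550 Drd3-positive nuclei, with Drd3 in 7.74%, 7.09% and 8.46% of their nuclei. Each held Drd3-positive nuclei from all 40 animals. Those of the first were the deepest (median 2548 UMIs) and carried Pdyn in 81.5%, against 48.8% and 54.0% in the others. Those of the third carried Hcrtr2, the orexin receptor 2 gene, in 24.7%, against 13.2% in the first and 14.3% in the second, and Hcrtr2 is among the leading genes of that cluster. Between Drd3-positive nuclei of the eccentric-like and the D1-like cluster, Foxp2 was found in 58.4% against 10.6%, Pdyn in 27.6% against 62.4%, and DRD1A in 76.2% against 82.2%. A cluster at the finer resolution led by genes of cholinergic neurons, among them Slc5a7 and Chat, and left unnamed, held 39 Drd3-positive nuclei from 20 animals. Chat was found in 23.1% of these and DRD1A in 10.3%. Drd3 was found in 1.92% of all this cluster's nuclei (1.43 to 2.52%). In the cluster led by Npy, Sst and Nos1 it was found in 0.258% (0.0532 to 0.751%), and 3 nuclei there were Drd3-positive. Another unnamed cluster at that resolution, led by Alas2, a gene of haem synthesis, held 45 Drd3-positive nuclei from 16 animals, 14 of them from male mate 7. These were shallow, with a median of 637 UMIs, and 51.9% of all the cluster's nuclei came from 1 library. Krt15 was found in 6.67% of the 45, Prok2 in 13.3%, Lrrc38 in 8.89%, Pld5 in 13.3% and DRD1A in 28.9%.

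The few Drd3-positive nuclei with several of the 4 marks were unevenly spread. Of the 18 with 2 or more of Krt15, Prok2, Lrrc38 and Pld5, 7 came from male peer 5, 3 each from male mate 7 and female peer 7, and the rest from 4 other animals. They were shallow, with a median of 755.5 UMIs, and 14 of them lay under 1000 UMIs, where 204 (7.89%) of all Drd3-positive nuclei lay. In the D1-like cluster lay 14, and 6 of the 18 carried DRD1A. Krt15 was found in 189 kept nuclei of any kind, from 27 animals, and 64.0% of these came from 4 animals. Drd3 was found in 13.8% of Krt15 nuclei and in 2.5% of the nuclei without Krt15, although the median depth of Krt15 nuclei was 1005 UMIs. Most of the 26 nuclei with both genes came from few animals: 13 from male peer 5, 5 from male mate 9 and 4 from male mate 7. No animal held 10 nuclei with 2 or more marks, so their expression was not tested.

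**Figure D2:**
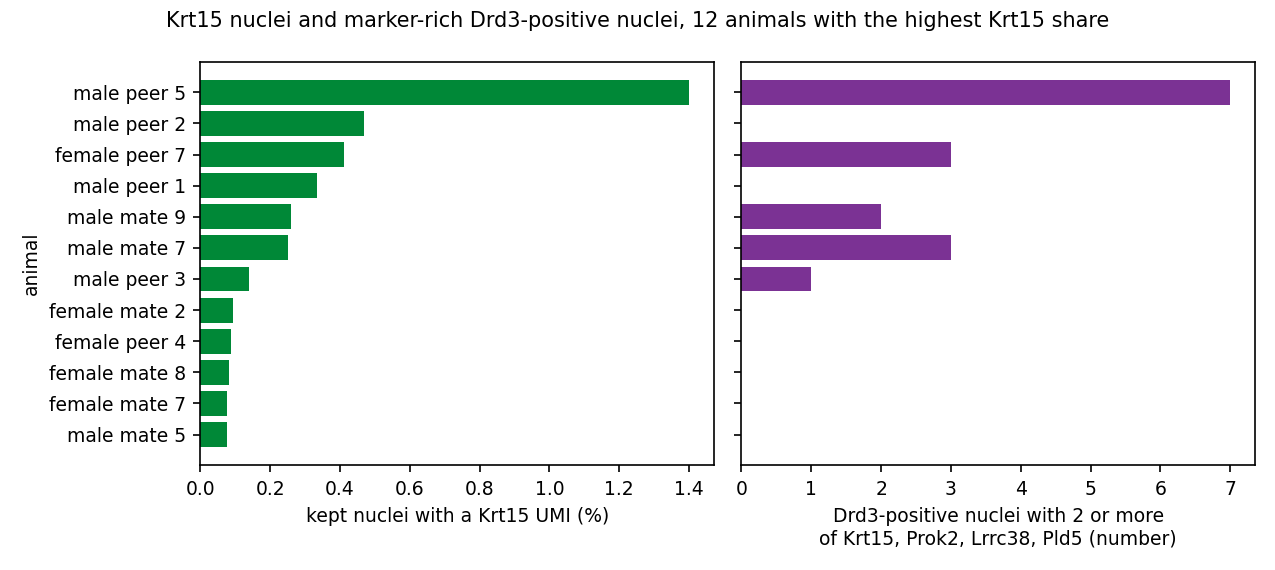
Percent of kept nuclei with a Krt15 UMI (left) and number of Drd3-positive nuclei with 2 or more of Krt15, Prok2, Lrrc38 and Pld5 (right), for the 12 animals with the highest Krt15 share, 1 bar per animal. Male peer 5 stands highest in both, with 63 Krt15 nuclei and 7 such Drd3-positive nuclei.

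Nuclei with 2 or more Drd3 UMIs, a narrower choice, lay in the D1-like cluster in 87.6% of cases, against 84.9% of those with 1. Krt15 was found in 3 of them (1.76% against 0.455%), Prok2 in 9 (5.29% against 1.32%), and DRD1A in 71.8% against 78.2%. The 14 Krt15 nuclei among all Drd3-positive nuclei came from 5 animals. Those with 2 or more Drd3 UMIs came from 36 animals, at most 13 from any of them, and their median depth was 2296 against 2124 UMIs. No animal held 20 of them, so no expression test was made.

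The share of Drd3-positive nuclei per animal did not pass the test for any comparison. In female mate animals it ran from 1.22% to 1.99% of kept nuclei with a median of 1.54%, and in female peer animals from 0.658% to 2.06% with a median of 1.28%. Male mate animals ran from 0.638% to 2.51% with a median of 1.34%, and male peer animals from 0.506% to 2.27% with a median of 1.23%. All 4 groups overlapped, and the lowest mate value, 0.638%, was that of the shallow library. Group means were 1.54% ± 0.285 (SD, n = 11), 1.35% ± 0.412 (SD, n = 8), 1.40% ± 0.627 (SD, n = 11) and 1.35% ± 0.527 (SD, n = 10) in the same order.

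Mate animals exceeded peer animals by 0.117 percentage points averaged over the sexes (two-sided permutation test, p = 0.435, adjusted p = 0.839 over 5 comparisons). Females exceeded males by 0.0654 points (permutation p = 0.671, adjusted p = 0.839), and by 0.0275 points without library 4 (permutation p = 0.857). The mate minus peer difference was 0.190 points in females (exact permutation p = 0.252) and 0.0439 points in males (exact permutation p = 0.863), and these differences did not differ detectably from each other (permutation p = 0.629). Without library 4 the pairing difference was 0.155 points (permutation p = 0.301), that in males was 0.120 points (exact permutation p = 0.639), and that in females exceeded that in males by 0.0700 instead of 0.146 points (permutation p = 0.819). The share of the D1-like cluster among kept nuclei varied too, from 8.45% in female peer 1 to 27.0% in male peer 5. Male peer 8, with the lowest share of Drd3-positive nuclei, had 8.69% of its nuclei in that cluster. Its part in the spread between animals was not tested. A share of nuclei cannot tell fewer cells of a kind from less Drd3 RNA per cell.

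**Figure D3:**
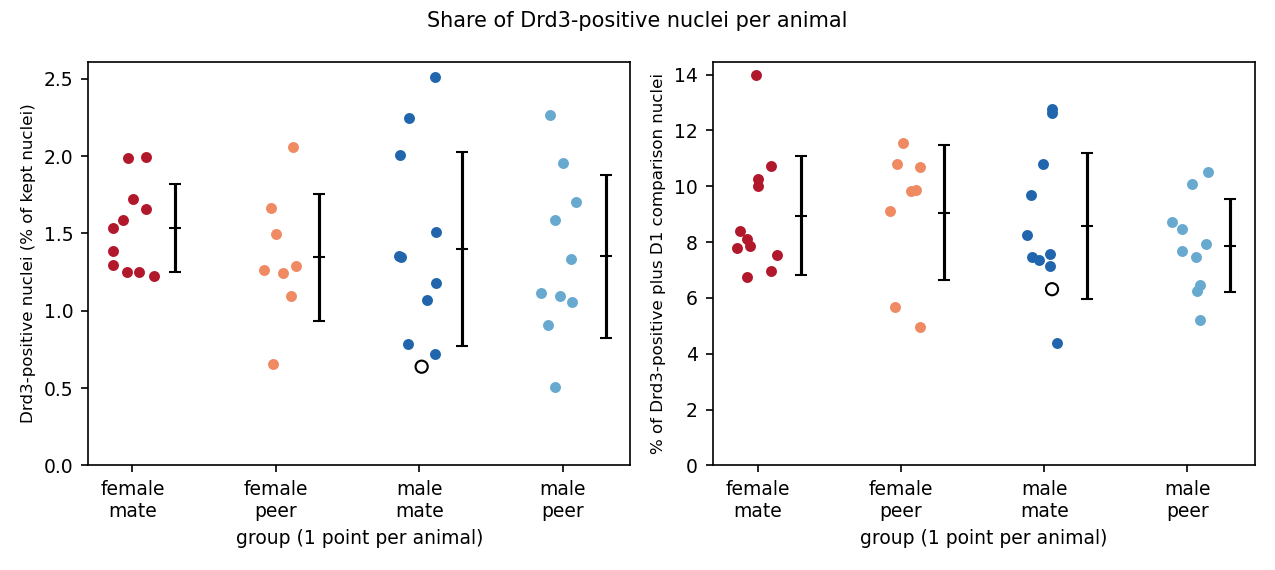
Drd3-positive nuclei per animal as a percent of kept nuclei (left) and of Drd3-positive plus D1 comparison nuclei (right), by group. Each point is 1 animal, the open circle is the shallow library (male mate 2), and the bars give mean and SD. The groups overlap in both panels.

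Against the D1 comparison nuclei of the same animals, Drd3-positive nuclei had more RNA of Dlk1, Hcrtr2, Angpt1, Cartpt and Pdyn, and less of Npy, Sst and Foxp2, genes of interneurons and eccentric spiny neurons. UMIs were summed per animal over each kind of nucleus and tested with edgeR's quasi-likelihood test with the animal as a block, over 39 animals. Male peer 1 was left out because it had 19 Drd3-positive nuclei. The sums had a median of 156496 UMIs for Drd3-positive and 1533495 for D1 comparison nuclei, so levels in the Drd3-positive nuclei carry more counting error. Of 7083 genes tested, 349 (4.93%) passed at a Benjamini-Hochberg adjusted p of 0.05, 172 (2.43%) higher and 177 (2.5%) lower in the Drd3-positive nuclei. The 2 kinds were not alike in where they lay, with 85.1% against 69.7% in the D1-like cluster. The comparison was therefore repeated within that cluster, an alternative chosen after the data were seen, over 38 animals (female peer 1 also fell below 20 nuclei). There 84 of 6170 genes (1.36%) passed, 38 (0.616%) higher and 46 (0.746%) lower. Of the 349 genes, 290 were tested in the cluster, 258 of them with the same direction as before. Of the 349, 42 (12.0%) also passed there, all in the same direction, and these were 50.0% of the 84. The nuclei of this cluster are in both comparisons, so their agreement is no independent check.

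The gene with the largest rise was Dlk1, which encodes a membrane protein related to Notch ligands. Its level in the Drd3-positive nuclei ran from 0 to 369 CPM over animals with a median of 93.1, and in the D1 comparison nuclei from 19.4 to 106 CPM with a median of 55.6. The ranges overlapped, and the Drd3-positive value was the higher in 28 of 39 animals. The log2 fold change was 0.94 ± 0.111 (SE; edgeR adjusted p = 8.77e-12), and 0.76 ± 0.0900 within the D1-like cluster (edgeR adjusted p = 3.49e-12), where it was higher in 24 of 38 animals. With DESeq2 it was 0.60 and did not pass (adjusted p = 0.0557). Dlk1 was found in 7.46% of Drd3-positive nuclei against 4.27%, and 1 nucleus held up to 27 of its UMIs. In the D1-like cluster the shares were 7.77% and 5.31%. Dlk1 is also among the leading genes of the first and second D1-like clusters at the finer resolution.

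Hcrtr2, the receptor for orexin peptides of the hypothalamus, was raised more evenly. Its level ran from 19.4 to 126 CPM with a median of 79.9 in the Drd3-positive nuclei, and from 15.2 to 94.1 CPM with a median of 42.1 in the D1 comparison nuclei. It was higher in the Drd3-positive nuclei of 36 of 39 animals. The log2 fold change was 0.77 ± 0.0835 (SE; edgeR adjusted p = 1.80e-13), and 0.51 ± 0.0828 within the D1-like cluster (edgeR adjusted p = 1.28e-06), where it was higher in 33 of 38 animals.

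Pdyn ran from 287 to 1100.4 CPM with a median of 640.5 in the Drd3-positive nuclei, and from 271 to 736 CPM with a median of 479 in the D1 comparison nuclei. It was higher in 35 of 39 animals (log2 fold change 0.40 ± 0.0389 SE, edgeR adjusted p = 1.23e-15). Within the D1-like cluster the difference was smaller, 0.18 ± 0.0322 (edgeR adjusted p = 3.13e-05), with medians of 687 and 623 CPM and a higher value in 24 of 38 animals. The kappa opioid receptor gene Oprk1, whose product binds dynorphin, rose by 0.30 on the log2 scale (edgeR adjusted p = 8.45e-08) and by 0.16 within the cluster (edgeR adjusted p = 0.0341).

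Cartpt, the gene of the CART peptide, ran from 41.7 to 332 CPM with a median of 147 in the Drd3-positive nuclei and from 30.1 to 209 CPM with a median of 106 in the others. It was higher in 33 of 39 animals, by 0.55 ± 0.0659 (SE) on the log2 scale (edgeR adjusted p = 1.88e-11), and by 0.29 ± 0.0599 within the D1-like cluster (edgeR adjusted p = 0.000601). Angpt1, the gene of the vessel growth factor angiopoietin 1, was higher in 33 of 39 animals, by 0.66 ± 0.0874 (edgeR adjusted p = 9.96e-10) and by 0.37 ± 0.0898 within the cluster (edgeR adjusted p = 0.00646). The medians over animals were 63.7 and 39.4 CPM.

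The other 7 of the 12 genes with the largest rises were Tmem255a (0.61 on the log2 scale), Kcng3 (0.49), Ecel1 (0.44), Car12 (0.38), Nr3c2 (0.38), Mlip (0.37) and Tmem150c (0.35). Kcng3 encodes a modifying subunit of voltage-gated potassium channels, Car12 a carbonic anhydrase, Ecel1 a membrane peptidase and Nr3c2 the mineralocorticoid receptor. Within the D1-like cluster Kcng3 (0.25), Car12 (0.18), Mlip (0.13) and Tmem150c (0.10) no longer passed, and the other 3 had too few counts there to be tested. Ecel1 was higher in 20 of 39 animals and failed under DESeq2 (adjusted p = 0.314) and among nuclei of 1500 to 4000 UMIs (edgeR adjusted p = 0.500), and among Drd3-positive nuclei with DRD1A (edgeR adjusted p = 0.571). With no animal block Ecel1, Car12, Nr3c2 and Mlip did not pass in edgeR (adjusted p = 0.527, 0.201, 0.0700 and 0.0911), and Nr3c2 also failed without doublets (edgeR adjusted p = 0.0518) and with no filter on low counts (edgeR adjusted p = 0.0916).

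**Figure D4:**
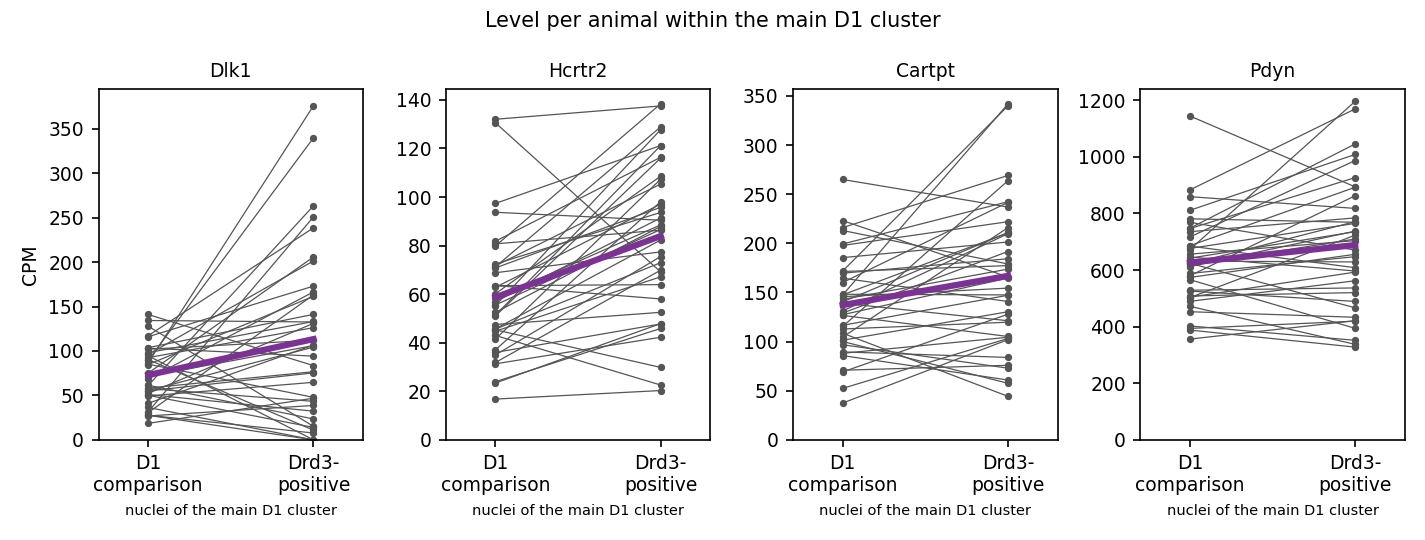
Level of Dlk1, Hcrtr2, Cartpt and Pdyn in CPM, in D1 comparison and Drd3-positive nuclei of the D1-like cluster. Each thin line joins the values of 1 of 38 animals, and the thick line joins the means, which rise from 72.9 to 113, from 58.7 to 83.9, from 137 to 167 and from 626 to 688 CPM.

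Npy and Sst, the peptide genes of a class of interneurons, fell by 1.95 ± 0.171 and 1.75 ± 0.177 (SE) on the log2 scale (edgeR adjusted p = 1.16e-18 and 3.86e-15). Sst ran from 0 to 1159 CPM with a median of 23.2 in the Drd3-positive nuclei and from 48.4 to 862 CPM with a median of 312 in the D1 comparison nuclei. The Drd3-positive nuclei were lower in 34 of 39 animals. Sst UMIs were found in 4.25% of Drd3-positive and 5.43% of D1 comparison nuclei, shares closer to each other than the levels were, and 1 Drd3-positive nucleus held 203 Sst UMIs. In the D1-like cluster these shares were 3.64% and 3.89%, and neither Sst nor Npy had enough counts there to be tested.

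Large falls were also those of Nfix, Pcdh8, Crhr2, Nos1, Cck, Elavl4, Olfm3, Foxp2 and Cnr1, from -1.52 for Nfix to -0.85 for Cnr1. Few Drd3-positive nuclei held UMIs of Nfix (67), Elavl4 (82), Crhr2 (83), Olfm3 (94), Nos1 (95) or Pcdh8 (119). Their levels per animal thus rest on few UMIs, whereas Foxp2 was found in 366 nuclei and Cnr1 in 667. Pcdh8, Olfm3 and Foxp2 are among the leading genes of eccentric-like clusters. Foxp2, a transcription factor gene, was lower in 38 of 39 animals (log2 fold change -0.87, edgeR adjusted p = 1.68e-21), but in the D1-like cluster it stood at -0.14 (edgeR adjusted p = 0.733). Cck, a peptide gene, fell by 1.20 over all clusters and stood at 0.01 within the D1-like cluster. Cnr1, the cannabinoid receptor 1 gene, remained lower there (-0.21 ± 0.0552 SE, edgeR adjusted p = 0.0201), with a lower value in all but 9 of 38 animals. Nos1 fell in level by 1.38 although its UMIs were found in 3.67% of Drd3-positive nuclei and 3.16% of D1 comparison nuclei. Nfix, Pcdh8, Crhr2, Nos1, Elavl4 and Olfm3 were not tested within the D1-like cluster. There, Nfix was found in 1.41% of Drd3-positive against 1.99% of D1 comparison nuclei, and Crhr2 in 2.05% against 2.55%. The shares went the other way for Nos1 (3.091% against 1.959%), Pcdh8 (1.18% against 0.904%) and Elavl4 (1.68% against 1.32%). Olfm3 stood at 3.05% against 3.02%. The part of cluster make-up in these falls was not tested.

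**Figure D5:**
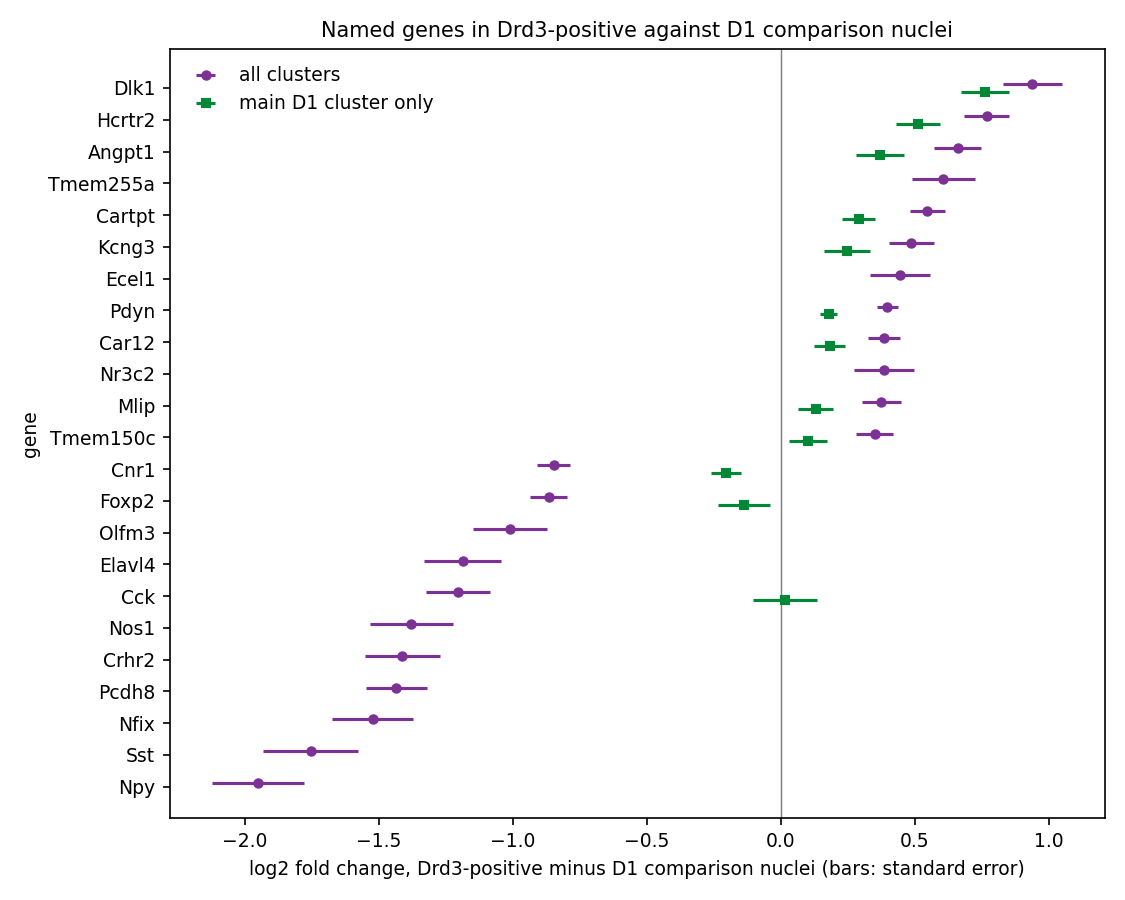
Log2 fold change, Drd3-positive minus D1 comparison nuclei, with standard errors, for the 12 genes with the largest rises and 11 with large falls, over all clusters (circles) and within the D1-like cluster (squares, where the gene could be tested). All 9 of the tested rises stay above 0 within the cluster, from 0.10 to 0.76, and of the 3 tested falls Cck stands at 0.01.

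The counts of lists that follow stand beside 2.43% of all genes higher and 2.5% lower over all clusters, and 0.616% and 0.746% within the D1-like cluster. Peptide genes moved in both directions. Of 13 neuropeptide genes 7 were tested: Pdyn, Tac1 and Cartpt were higher and Penk, Cck, Sst and Npy lower, with a median log2 fold change of -0.58 beside 0.02 over all genes. Within the D1-like cluster 5 were tested, the same 3 were higher and none was lower (median 0.12 beside 0.01). Of 4 tested markers of D1 medium spiny neurons, Tac1, Reln and Pdyn were higher (median 0.16). Within the cluster Tac1 and Pdyn were higher (median 0.05), and Reln stood at -0.07 (edgeR adjusted p = 0.384). Of 9 markers of medium spiny neurons of any kind, Adcy5 and Rarb were higher, and none within the cluster. All 3 tested interneuron markers and both tested eccentric spiny neuron markers were lower over all clusters. The filter on low counts covered both kinds of sums, so a gene could be tested through the D1 comparison nuclei alone. With Drd3-positive sums only, as in the group comparisons below, 1 interneuron marker and 1 eccentric marker were tested. These counts of lower markers are thus a description. The 5 tested markers of neurons of any kind gave Syt1 and Snap25 lower and none higher (median -0.08), with none called within the cluster.

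Of 15 tested genes of dopamine receptor and cyclic AMP signalling, 3 were higher and none lower, and the list's median was 0.08. Those higher were Pde1b (0.18), a phosphodiesterase, Gnal (0.13), the stimulatory G protein of the striatum, and Adcy5 (0.08), its adenylyl cyclase. Within the D1-like cluster none of 14 passed, and their median was -0.01. Among receptors for peptides, steroids and other messengers, Oprk1 was the only one of 10 that was higher, and Cnr1 and Crhr2 were lower. Within the cluster Oprm1, the mu opioid receptor gene, was also higher (0.29 ± 0.0582 SE, edgeR adjusted p = 0.000283), with medians of 167 and 136 CPM over animals. It stood at 0.14 over all clusters and did not pass there (edgeR adjusted p = 0.165).

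Among transcription factor genes 2 were higher and 3 lower, with Rarb and Foxp1 higher and Tshz1, Foxp2 and Nfix lower of 13 tested, and none of 9 passed within the cluster. Of 26 tested subunits of glutamate and GABA receptors, Grin2a, Grin3a and Gabra3 were lower, and none of 24 within the cluster. Of 6 immediate early genes, which respond to recent activity, Fos was lower (-0.59), and none of 4 passed within the cluster. Gad1, a GABA synthesis gene, was lower over all clusters (-0.34) and stood at 0.07 within the cluster, where its partner Gad2 was higher (0.13). The astrocyte markers Slc1a3 and Gja1 and the oligodendrocyte marker Mbp were lower in the Drd3-positive nuclei over all clusters. The summed level of the 6 astrocyte markers was 468 CPM in Drd3-positive and 499 CPM in D1 comparison nuclei, and that of the 9 interneuron markers 214 and 703 CPM. Their part in the other differences was not tested.

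Within the D1-like cluster the largest falls, named after their values were seen, were those of Abi3bp (-0.66), Pcdh7 (-0.52), Slc25a37 (-0.51), Cntnap4 (-0.50), Sh3rf2 (-0.46) and Ptchd4 (-0.44). Pcdh7 and Cntnap4 encode adhesion proteins of neurons, and Slc25a37 a mitochondrial iron importer. Ptchd4 was higher in the Drd3-positive nuclei of only 3 of 38 animals, with medians of 98.5 and 141 CPM (edgeR adjusted p = 8.34e-09). All but Sh3rf2 (-0.21, edgeR adjusted p = 0.323) also passed in the same direction over all clusters. Dner, a gene of a Notch-related membrane protein of neurons, was higher within the cluster (0.47) and stood at -0.07 over all clusters (edgeR adjusted p = 0.811). Its medians over animals in the cluster were 34.3 and 35.0 CPM, and it was higher in 22 of 38.

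Gene expression within the Drd3-positive nuclei was then compared between the groups, with summed UMIs of 22 mate animals (11 of each sex) and 17 peer animals (8 females and 9 males) in 1 edgeR fit. The sums ran from 25041 UMIs in the shallow library to 269696, so that few UMIs stood behind genes of low level. For pairing, 0 of 5374 genes (0%) passed in edgeR and 0 in DESeq2, with 249 genes at an unadjusted p under 0.05. The pairing difference in females (0 genes, 0%; 265 unadjusted) and in males (0 genes, 0%; 191 unadjusted) and the difference between them (0 genes, 0%; 231 unadjusted) gave no call by either tool.

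The lowest p for pairing belonged to Lrp12, a gene of the LDL receptor family. It ran from 67.5 to 194 CPM with a median of 118 in mate animals, and from 40.0 to 120 CPM with a median of 83.5 in peer animals. Both ranges overlapped, and the log2 fold change of 0.47 ± 0.126 (SE) did not pass (edgeR p = 0.000412, adjusted p = 0.837). Phf6 (0.47) and Sbk1 (0.40) followed, with the same adjusted p in edgeR. In females the lowest p belonged to Adamts16 (1.13), Ppp1r9a (0.63) and Tceal5 (-0.75), each with an edgeR adjusted p of 0.967. In males it belonged to Cdh7 (0.85), Aars2 (1.14) and Phf6 (0.62), each with an edgeR adjusted p of 0.999. The difference between the sexes in the pairing effect was ranked highest for Ppp1r9a (0.96), Trappc14 (-1.16) and Spryd3 (1.03), with an edgeR adjusted p of 0.523.

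None of the genes that were higher in the Drd3-positive than in the D1 comparison nuclei passed between mate and peer animals. The pairing difference averaged over the sexes was -0.19 for Pdyn (approximate 95% interval -0.45 to 0.06, log2 scale), 0.14 for Dlk1 (-0.43 to 0.71), -0.04 for Hcrtr2 (-0.38 to 0.29) and 0.05 for Cartpt (-0.29 to 0.38).

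Between the sexes 1 of 5374 genes passed (0.0186%; 261 at an unadjusted p under 0.05). Kdm6a, which encodes a histone demethylase and is X-linked in other mammals, ran from 199.9 to 445 CPM with a median of 336 in females, and from 157 to 331 CPM with a median of 227 in males. The log2 fold change, female minus male, was 0.59 ± 0.0954 (SE; edgeR adjusted p = 0.000283), and 0.59 without library 4. Dlk1 had a median of 124 CPM in females and 61.0 CPM in males with wide overlap, a difference of 0.73 ± 0.288 (SE) that did not pass (edgeR p = 0.0131, adjusted p = 0.956).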

How the data were processed

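Nuclear RNA of 40 animals was measured with the 10x droplet method. The authors deposited unnormalised UMI counts for each gene in each barcode, made with Cell Ranger 3.1.0 per the submitters' processing notes; the genome build and annotation are not given in the sources used here. Of 194518 barcodes, 6375 fell below 500 UMIs and 2148 exceeded a share of 5% from the 13 mitochondrial genes; the others were kept. The nuclei, gene lists and named genes were chosen with earlier results of these data known. Of the 20 genes listed for dopamine receptor and cyclic AMP signalling 17 were used, and some genes of other lists were not used here.

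Counts were log-transformed after scaling to 10000, and 2000 variable genes and 30 components were clustered by the Leiden method (leidenalg 0.10.2, 15 neighbours, resolution 1) with no correction between libraries. A cluster was named from marker lists, and left unnamed where over 40% of its barcodes were called doublets, a limit set after seeing the data. Some clusters under that limit were unnamed too. At the finer resolution these included the clusters led by Alas2 (0.170% doublets) and by cholinergic genes (5.10%). Doublets (the highest scores against simulated doublets, 0.8% per 1000 barcodes, 7608 in all, of which 73 were Drd3-positive nuclei) were kept in the main results and removed in an alternative. Free RNA was not corrected.

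Shares were compared by permutation (100000 resamples) or exact permutation tests. UMI sums of animals with at least 20 nuclei of a kind were tested with edgeR 4.0.16 (quasi-likelihood, TMM, filterByExpr, R 4.3.3), with DESeq2 1.42.0 and limma 3.58.1 as alternatives; the genes of the rule were left out of the tests, and DRD1A also from the comparison with D1 nuclei. Named genes were the 12 largest rises and 12 largest falls among called genes with symbols and at least 20 CPM (computed from the sums) in the higher kind, and per group comparison up to 5 called genes or the 3 with the lowest p; 1 of the falls is not reported here. Replicate numbers follow label order and pair no animals. Scripts were tested on simulated data.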

Additional observations from a re-analysis of the deposited data

Results flagged for a closer look

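In the peer groups, of 8 to 10 animals, the highest or lowest value was set against the others by the size of its gap. The mate groups were not searched. Of 76 sets searched 9 had such a value. The cut-off marks about 1 set in 20 for independent, normally distributed values. Some of these sets rest on few UMIs, and Sst and Npy stood out in the same animals, so that rate need not hold here. Among female peer animals, Sst stood at 1159 CPM in the Drd3-positive nuclei of female peer 2 against 38.4 CPM in the next, and Npy at 293 against 63.2 CPM. Of the 87 Sst UMIs behind that value, 86 came from 1 nucleus. Among male peer animals, Sst stood at 1121 CPM in male peer 3 against 35.8 CPM in the next, and Npy at 496 against 39.0 CPM. In male peer 3, 203 of the 210 Sst UMIs came from 1 nucleus. Some mate animals were alike: 1 nucleus held 88 of 92 Sst UMIs in male mate 6 (977 CPM) and 78 of 80 in female mate 8 (483 CPM).

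Nfix stood at 46.5 CPM in female peer 1 (4 UMIs in 26 Drd3-positive nuclei) and Nos1 at 88.5 CPM in female peer 7. Phf6 stood at 133 CPM in male peer 9 (10 UMIs) and Trappc14 at 91.0 CPM in male peer 8 (7 UMIs). Mlip was at 0 CPM in the 57 Drd3-positive nuclei of male peer 2, where the next lowest male peer had 91.0 CPM.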

How the results depend on the processing

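Between Drd3-positive and D1 comparison nuclei, 172 genes were higher and 177 lower. These counts became 97 and 113 among nuclei of 1500 to 4000 UMIs, 33 and 66 with no animal block (no pairing of the 2 kinds within an animal), 73 and 969 with no filter on low counts, and 38 and 46 within the D1-like cluster; they stayed within 1.5 times under DESeq2, without library 4, without doublets and with DRD1A-carrying nuclei only. Without a filter the median of all genes moved from 0.02 to -0.10 (log2). Cck reversed within the D1-like cluster (0.0144). Of the group comparisons, the filter's absence called 1 gene for pairing, 2 in females, 1 in males and 2 by sex. Adamts16 was among those called in females. The comparison by sex gave 2 with blocks of 10 library numbers and 2 with no exclusion gene.

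The pairing difference in share turned to -0.00239 points with at least 2 Drd3 UMIs and to -0.276 as a share of the D1-like cluster. In females it turned to -0.0302 and -0.755, and to -0.116 as a share of Drd3-positive plus D1 comparison nuclei; the sex difference in the pairing effect turned to -0.0556, -0.958 and -0.820 in the same order. No share test passed in any setting. Both uses of the D1-like cluster, and the restriction to DRD1A-carrying nuclei, were chosen after seeing the data. The largest cluster held 32.8% of Drd3-positive nuclei at resolution 2. The causes were not tested. With a replicate block of adjacent library numbers, as if they were couples (also chosen after seeing the data), the pairing difference in share was 0.116 points (exact permutation p = 0.503), and limma called 0 genes for pairing, in either sex or for the sex difference, and 1 by sex (Kdm6a, adjusted p = 0.000317), with a correlation of 0.0488; at an unadjusted p under 0.05 it counted 224, 268, 205 and 239. Tests with at least 2 Drd3 UMIs and of marker-rich nuclei could not be fitted, since no animal held enough nuclei.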
